A study of Homo sapiens with 8 samples.

Results

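The mRNAs of the Mediator complex were followed with and without interferon-gamma (IFN-γ) in HCT116, a line of human colorectal cancer cells. The set holds 33 genes, chosen by name: the 7 genes of the kinase module (MED12, MED12L, MED13, MED13L, CCNC, CDK8 and CDK19) and 26 genes of the core, which were divided here into 11 head, 9 middle and 5 tail subunits and the scaffold subunit MED14. All 33 were found among the 40295 gene IDs of the count table, and all 33 were among the 16519 genes tested. The study compared wild-type HCT116 cells with a derivative in which CRISPR-Cas9 had introduced the E33Q change into MED12. Both lines were sampled untreated (0 h) and after 24 h with 5 ng/ml IFN-γ, as rRNA-depleted total RNA from 2 biological replicates per group, 8 libraries in all. The labels name 1 knock-in line and give no number of clones, so the change in MED12 and any other difference between these lines cannot be told apart. Every treated library was also the later time point, so IFN-γ and 24 h more of culture cannot be told apart either.

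Mediator is the multiprotein bridge between transcription factors bound at enhancers and RNA polymerase II at promoters. Its head and middle modules contact the polymerase, its tail binds many activators, and MED14 runs through the complex and holds these parts together. The kinase module docks onto this core reversibly and keeps it from the polymerase. In that module cyclin C (CCNC) pairs with CDK8 or its paralogue CDK19, MED12 activates the kinase through a helix in its N-terminal part, and MED13 makes the link to the core. MED12L and MED13L are paralogues that take the place of MED12 and MED13. IFN-γ induces the transcription factor IRF1, among many other genes. The title of the series names the activation of CDK8 by the MED12 helix as its subject.

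The libraries held 20873072 to 28006350 estimated counts, of which 33973 to 50652 fell on the 33 subunits. The lowest count of a subunit in a library was 97 and the highest 9813. Levels are given as CPM, counts normalised to library size, after scaling by the trimmed mean of M-values, a method that takes most genes as unchanged. Epithelial markers summed to 2450 to 5250 CPM in every library, with EPCAM at 115 to 217 CPM, whereas 6 fibroblast markers summed to at most 7.58 CPM and 5 endothelial markers to at most 2.67 CPM. Transcripts of plasma cells, which HCT116 cells do not make, were present in 4 libraries. The 13 plasma cell and leukocyte markers summed to 360 and 407 CPM in the untreated wild-type libraries, and to 355 and 282 CPM in the knock-in libraries numbered 2, untreated and treated. They summed to 1.8 to 2.67 CPM in the other 4. JCHAIN, the joining chain of secreted antibodies, was at 163, 158, 158 and 114 CPM in those 4 libraries and at 0 in both treated wild-type libraries. Both untreated wild-type libraries had this signal and neither treated one did, so in wild-type cells it cannot be told apart from the treatment. The treated libraries also had a higher GC content of their counts, 49.27 to 49.44% against 46.8 to 48.07%, and a higher share of ERCC spike-in RNA, 0.228 to 0.271% against 0.11 to 0.141%. In such bulk samples fewer cells of a kind and less RNA per cell cannot be told apart.

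With IFN-γ the subunit mRNAs moved in both directions, and no subunit was called in opposite directions in the lines. In wild-type cells 9 subunits rose and 9 fell at an adjusted p under 0.05 (edgeR quasi-likelihood F test over all tested genes, Benjamini-Hochberg adjustment). These were 54.5% of the members, where 37.9% of all tested genes were called, 17.1% higher and 20.8% lower. In knock-in cells 11 rose and 15 fell, 78.8% of the members, where 52.1% of all genes were called, 26.4% higher and 25.8% lower. The median log2 fold change of the 33 was -0.11 in wild-type and -0.13 in knock-in cells, against 0.08 and 0.12 over all genes. MED1, MED9, MED12, MED13L, MED15, MED16, MED24, MED26 and MED29, rose in both lines. CCNC, MED4, MED7, MED10, MED20, MED21, MED23, MED30 and MED31 fell in both. MED22 and MED25 rose, and MED6, MED11, MED14, MED17, MED18 and MED28 fell, with a call in knock-in cells and none in wild-type cells. The 7 subunits called in neither line were CDK8, CDK19, MED12L, MED13, MED8, MED19 and MED27. With each library left out in turn, 10 of the 18 wild-type and 18 of the 26 knock-in calls were kept throughout. Without both knock-in libraries numbered 2, which leaves knock-in libraries free of the plasma cell signal, 5 subunits rose and 7 fell in the knock-in response: MED12, MED15, MED16, MED24 and MED29 were still higher and CCNC, MED4, MED7, MED21, MED23, MED30 and MED31 still lower. In that fit the lone library of each knock-in group was assumed to vary like the other groups, and the share of all genes called in it is not given here.

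**Figure D1:**
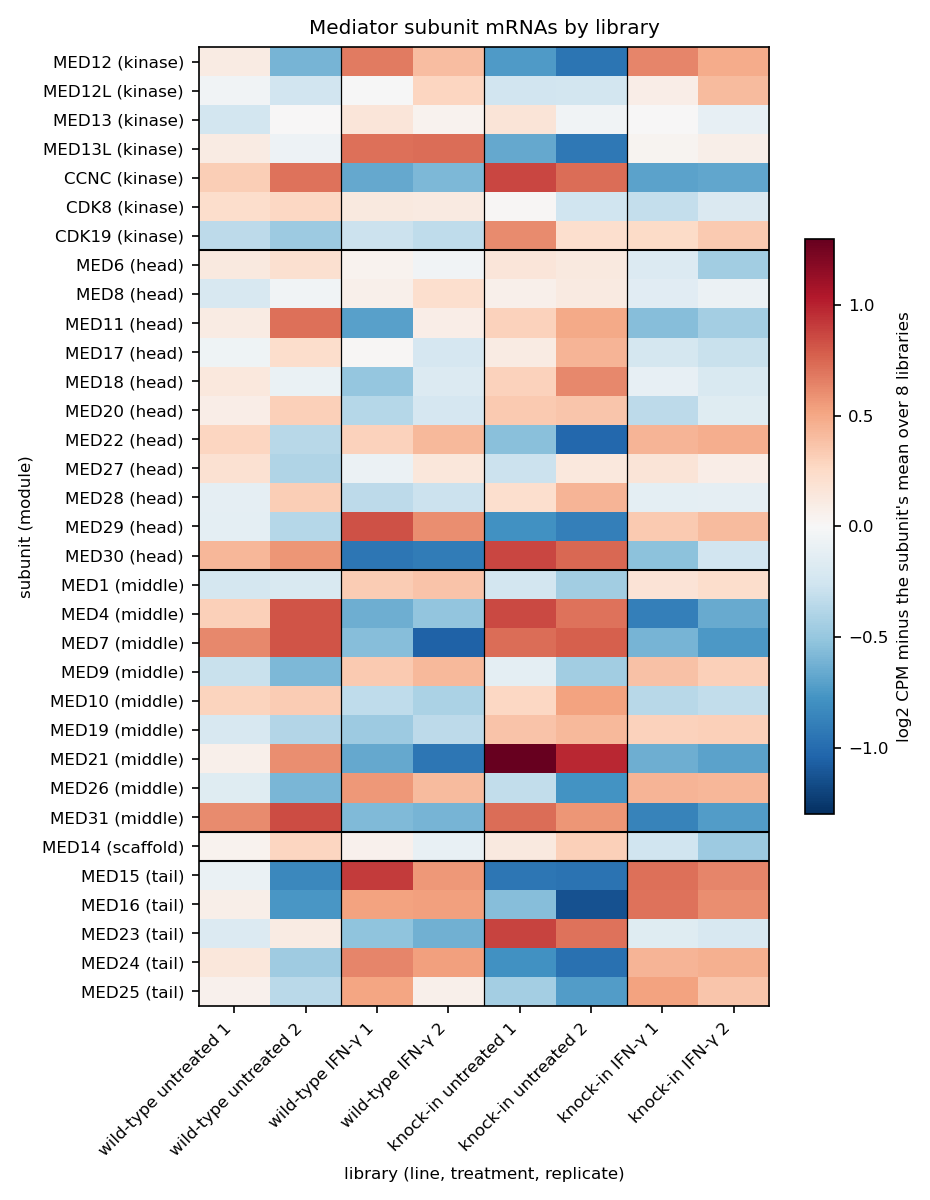
Heat map of the 33 subunit mRNAs (rows, by module) in the 8 libraries (columns), as log2 CPM minus the subunit's mean over the 8 libraries. CCNC, MED4, MED7, MED21, MED30 and MED31 are high in the 4 untreated libraries and low in the 4 treated ones, whereas MED12, MED15, MED24 and MED29 are highest in treated libraries.

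The genes of the kinase module did not move together. MED12, the subunit that carries the E33Q change (ENSG00000184634, GRCh38 chrX:71118556-71142454), was at 23.1 and 14.2 CPM in the untreated and 34.3 and 28.3 CPM in the treated wild-type libraries. In knock-in cells it was at 12.9 and 11.2 CPM untreated and at 33.3 and 30.1 CPM treated. Every treated library was above every untreated one, and the treated libraries of both lines overlapped. MED12 mRNA rose by 0.75 ± 0.23 (log2 ± SE, adjusted p = 0.0302) in wild-type cells, a rise of 1.68-fold, and by 1.40 ± 0.24 (adjusted p = 0.00104) in knock-in cells. The wild-type call was lost without untreated library 2, when the change was 0.44, without treated library 1 (0.60) and without treated library 2 (0.88). The knock-in call was kept without any one library. These counts do not distinguish the edited from the unedited transcript.

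Cyclin C and the MED13 paralogues were the most abundant kinase module mRNAs. CCNC (ENSG00000112237, chr6:99542380-99568973) was at 163 and 214 CPM in untreated and 82.6 and 87.0 CPM in treated wild-type cells. In knock-in cells it was at 239 and 216 CPM untreated and at 80.9 and 81.9 CPM treated. The treated libraries of both lines lay in a narrow band far below the untreated ones. The fall was -1.15 ± 0.15 (adjusted p = 0.000716) in wild-type and -1.48 ± 0.15 (adjusted p = 0.000177) in knock-in cells. MED13L (ENSG00000123066, chr12:115953872-116277719) went the other way, from 246 and 219 to 374 and 379 CPM in wild-type cells and from 144 and 120 to 233 and 240 CPM in knock-in cells. Its treated knock-in libraries were within the range of the untreated wild-type ones. It rose by 0.70 ± 0.13 (adjusted p = 0.00333) and 0.85 ± 0.13 (adjusted p = 0.000709). MED13, which has the same role, was at 273 and 324 CPM untreated and 360 and 332 CPM treated in wild-type cells, and at 360 and 312.5 CPM untreated and 324 and 299 CPM treated in knock-in cells. It was called in neither line after scaling by the trimmed mean (0.21 ± 0.14 and -0.11 ± 0.14). With each of 2 GC and length corrections MED13 was called higher in wild-type cells (0.43 and 0.33). In knock-in cells it was called higher with the first (0.30) and not with the second (0.21). With spike-in scaling it was called lower in both lines (-0.57 and -0.64).

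The kinase genes themselves showed no called response with TMM scaling, although CDK8 was called higher in knock-in cells with one GC and length correction (0.44) and lower in both lines with spike-in scaling (-0.92 and -0.66). CDK8 was at 49.0 and 50.6 CPM untreated and 45.8 and 45.6 CPM treated in wild-type cells, and at 42.2 and 35.0 CPM untreated and 33.7 and 36.9 CPM treated in knock-in cells. Its log2 fold changes were -0.12 ± 0.14 and -0.13 ± 0.14. CDK19 was at 15.9 and 14.5 CPM untreated and 16.5 and 16.0 CPM treated in wild-type cells, against 30.7 and 23.5 CPM untreated and 23.9 and 25.4 CPM treated in knock-in cells. All 4 knock-in libraries were above all 4 wild-type ones, with no called response in either line (0.10 ± 0.17 and -0.13 ± 0.17). MED12L was the least abundant of the module, at 6.51 to 10.2 CPM over the 8 libraries, and its rise was not called (0.28 ± 0.22 and 0.50 ± 0.22).

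**Figure D2:**
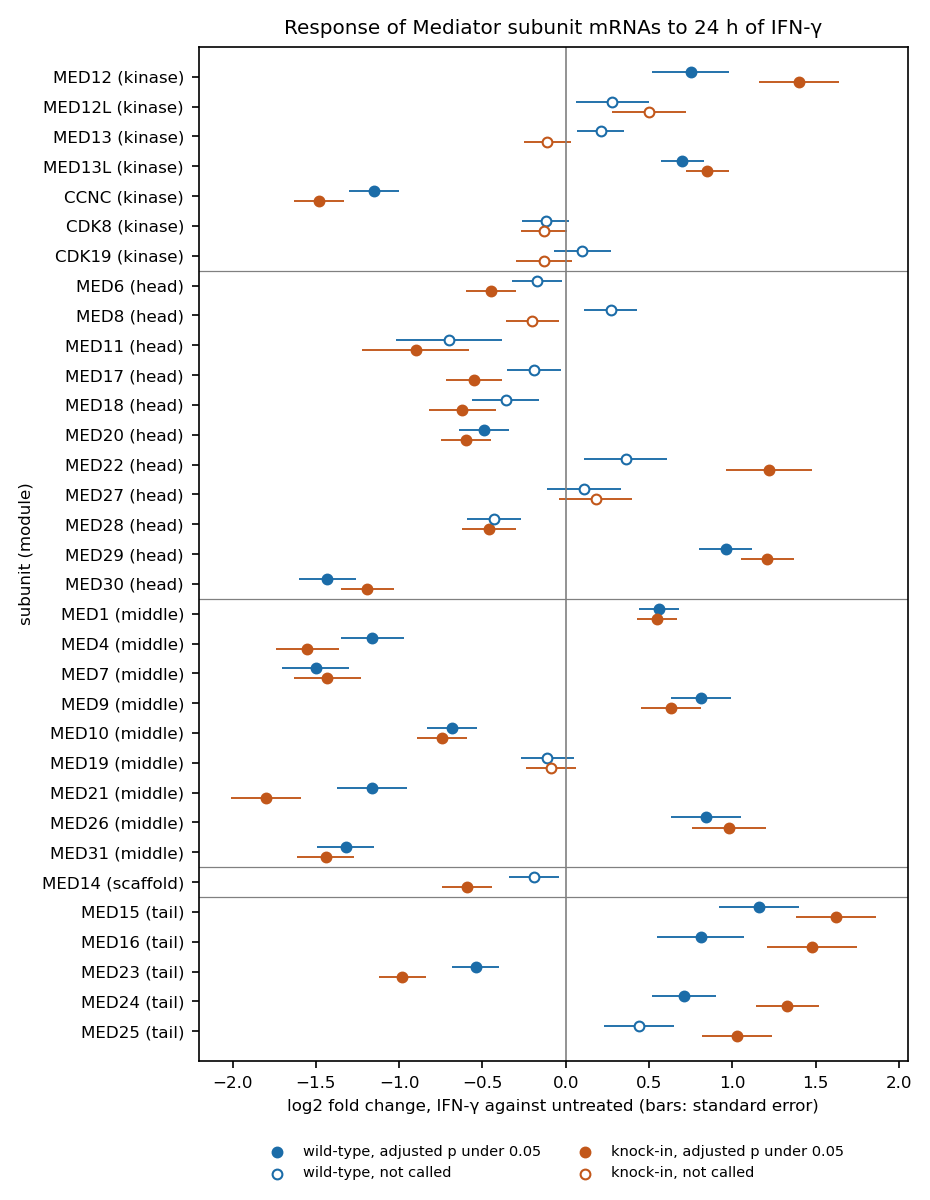
Log2 fold change of each subunit mRNA with IFN-γ against untreated (horizontal axis), in wild-type (blue) and knock-in cells (orange), with the standard error from the edgeR fit as bars. Filled points had an adjusted p under 0.05; MED7 in wild-type (-1.50) and MED21 in knock-in cells (-1.80) fell furthest, and MED15 rose furthest in both (1.16 and 1.62).

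Of the 11 subunits placed here in the head, 1 rose and 2 fell in wild-type cells and 2 rose and 7 fell in knock-in cells. These were 27.3% and 81.8% of them, where 37.9% and 52.1% of all tested genes were called. MED30 was at 26.4 and 29.1 CPM untreated and 10.2 and 10.4 CPM treated in wild-type cells, and at 35.65 and 32.8 CPM untreated and 13.4 and 16.5 CPM treated in knock-in cells. It changed by -1.43 ± 0.17 (adjusted p = 0.000499) and -1.19 ± 0.16 (adjusted p = 0.000394), with no overlap. MED29 rose from 26.9 and 22.8 to 52.3 and 44.7 CPM in wild-type cells and from 17.1 and 15.9 to 37.3 and 39.1 CPM in knock-in cells. Its changes were 0.96 ± 0.16 (adjusted p = 0.00168) and 1.21 ± 0.16 (adjusted p = 0.000329), and treated and untreated libraries did not overlap in either line.

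MED20 fell in both lines (-0.49 ± 0.15 and -0.60 ± 0.15), from 34.8 to 41.9 CPM over the untreated libraries to 25.3 to 29.3 CPM over the treated ones. MED22 was at 12.1 and 7.77 CPM untreated and 12.2 and 13.4 CPM treated in wild-type cells, and rose from 6.85 and 4.92 to 13.5 and 13.9 CPM in knock-in cells (1.22 ± 0.26, adjusted p = 0.00312). In wild-type cells the higher untreated and the lower treated library nearly met. MED17, the central scaffold of the head, fell in knock-in cells, at -0.55 ± 0.17 (adjusted p = 0.0197) and was at -0.19 ± 0.16 in wild-type cells, where its treated and untreated libraries overlapped. MED6 (-0.45 ± 0.15), MED11 (-0.90 ± 0.32), MED18 (-0.62 ± 0.20) and MED28 (-0.46 ± 0.16) had falls called in knock-in cells, and their wild-type values were -0.17, -0.70, -0.36 and -0.43. MED11 had the lowest mean CPM of the 33, at 3.7 to 9.92 CPM over the libraries, and the largest standard error. MED8 and MED27 were called in neither line. For MED18 and MED22 the table held a further, unnamed ID with identical counts, so reads of these genes may be counted at both IDs and their values are uncertain. No pseudogene named after a subunit was above 0.42 CPM in any library.

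Of the 9 knock-in calls among head subunits, 6 were lost when one library or another was left out. In wild-type cells MED20 was no longer called without untreated library 2 (-0.38), treated library 1 (-0.42) or 2 (-0.57), or treated knock-in library 1 or 2 (-0.49 each), and its knock-in call without treated knock-in library 1 (-0.51). In knock-in cells MED6 lost its call without any one of the treated wild-type (-0.45 each), untreated knock-in (-0.44 and -0.46) or treated knock-in libraries (-0.59 and -0.32). MED11 did so without untreated knock-in library 1 (-0.99) or 2 (-0.79) or treated knock-in library 1 (-0.84) or 2 (-0.95). MED17 and MED18 lost theirs without untreated knock-in library 2 (-0.37 and -0.45), treated knock-in library 1 (-0.57 and -0.67) or treated knock-in library 2 (-0.52 and -0.58). MED28 lost its call without these same 3 libraries (-0.35, -0.45 and -0.46) and without either treated wild-type library (-0.46 each). MED22, MED29 and MED30 kept their knock-in calls in every such fit.

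The 9 middle subunits split into 3 that rose and 5 that fell, in both lines. These were 88.9% of them, where 37.9% (wild-type) and 52.1% (knock-in) of all tested genes were called. MED7 (ENSG00000155868, chr5:157137412-157159019) and MED21, which pair in a hinge of the middle module, were among the deepest falls. MED7 was at 21.5 and 24.5 CPM untreated and 9.5 and 6.7 CPM treated in wild-type cells, and at 23.1 and 23.9 CPM untreated and 9.12 and 8.30 CPM treated in knock-in cells. It changed by -1.50 ± 0.20 (adjusted p = 0.000776) and -1.43 ± 0.20 (adjusted p = 0.000449). MED21 (ENSG00000152944, chr12:27022546-27066343) was at 36.6 and 53.3 CPM untreated and 22.01 and 18.2 CPM treated in wild-type cells, and at 85.7 and 68.8 CPM untreated and 22.6 and 21.6 CPM treated in knock-in cells. Treated levels were alike in both lines, and the untreated knock-in libraries were above the untreated wild-type ones. It changed by -1.16 ± 0.21 (adjusted p = 0.00252) and -1.80 ± 0.21 (adjusted p = 0.000213).

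MED4 and MED31 also fell. MED4 went from 44.7 and 63.6 to 23.3 and 25.2 CPM in wild-type cells and from 65.2 and 58.7 to 19.5 and 22.9 CPM in knock-in cells (-1.16 ± 0.19 and -1.55 ± 0.19). MED31, one of the subunits best conserved from yeast to human, went from 24.5 and 28.9 to 10.8 and 10.6 CPM and from 26.5 and 23.9 to 8.79 and 9.69 CPM (-1.32 ± 0.17 and -1.44 ± 0.17). MED10 fell less, at -0.68 ± 0.15 and -0.74 ± 0.15. In each case the treated libraries were all below the untreated ones.

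MED1, the docking subunit of nuclear receptors, rose by similar amounts in both lines. It was at 137 and 140 CPM untreated and 202 and 207 CPM treated in wild-type cells, and at 136 and 117 CPM untreated and 182 and 188 CPM treated in knock-in cells (0.56 ± 0.12, adjusted p = 0.00674, and 0.55 ± 0.12, adjusted p = 0.00449). MED26, which recruits elongation factors, rose from 13.3 and 9.82 to 21.8 and 19.6 CPM and from 11.9 and 8.62 to 20.2 and 20.02 CPM (0.84 ± 0.21 and 0.98 ± 0.22). MED9 rose by 0.81 ± 0.18 and 0.63 ± 0.18, and MED19 was called in neither line. Among the wild-type calls, MED1 lost its call without treated library 2 (0.54), MED10 without treated library 2 (-0.65) and MED26 without untreated library 2 (0.64) or treated library 1 (0.76). In knock-in cells MED9 lost its call without untreated library 2 (0.47), treated library 1 (0.59) or treated library 2 (0.67).

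MED14, the scaffold, fell in knock-in cells from 59.1 and 67.0 to 45.1 and 39.0 CPM (-0.59 ± 0.15, adjusted p = 0.00924). In wild-type cells its untreated libraries, at 55.7 and 65.7 CPM, overlapped the treated ones at 56.1 and 50.5 CPM (-0.19 ± 0.15). The knock-in call was lost without untreated library 2 (-0.49) or treated library 2 (-0.49).

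The tail receives many activators, and its subunit MED15 had the largest rise of the 33 in both lines. MED15 (ENSG00000099917, chr22:20495913-20587632), which binds several activators, was at 23.1 and 13.7 CPM untreated and 46.0 and 36.1 CPM treated in wild-type cells, and at 12.8 and 12.6 CPM untreated and 40.1 and 38.0 CPM treated in knock-in cells. It rose by 1.16 ± 0.24 (adjusted p = 0.00489) and 1.62 ± 0.24 (adjusted p = 0.000578), or 2.23-fold and 3.07-fold. MED24 was at 84.3 and 55.5 CPM untreated and 119 and 110 CPM treated in wild-type cells, and at 44.2 and 39.0 CPM untreated and 104 and 105 CPM treated in knock-in cells (0.71 ± 0.19, adjusted p = 0.0154, and 1.33 ± 0.19, adjusted p = 0.000474). Its treated libraries differed little between the lines, and the untreated wild-type libraries were far apart. MED16 went from 42.3 and 23.8 to 57.6 and 58.0 CPM and from 27.2 and 18.3 to 65.4 and 61.0 CPM (0.81 ± 0.26 and 1.48 ± 0.27).

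MED23 was the tail subunit that fell. It was at 68.3 and 83.0 CPM untreated and 53.8 and 49.9 CPM treated in wild-type cells, and at 142 and 126 CPM untreated and 69.4 and 66.6 CPM treated in knock-in cells (-0.54 ± 0.14, adjusted p = 0.015, and -0.98 ± 0.14, adjusted p = 0.000503). MED25, an acceptor of activators of the ETS family, was at 25.2 and 19.0 CPM untreated and 34.6 and 25.4 CPM treated in wild-type cells (0.44 ± 0.21, not called) and rose from 17.9 and 14.6 to 34.9 and 31.2 CPM in knock-in cells (1.03 ± 0.21, adjusted p = 0.00305). Over the tail, 3 of 5 rose and 1 fell in wild-type cells and 4 rose and 1 fell in knock-in cells. The knock-in calls of the tail were all kept without any one library. In wild-type cells MED24 lost its call without treated library 1 (0.66) or 2 (0.77), and its value was 0.44 without untreated library 2. MED23 lost its call without treated library 1 (-0.60) or 2 (-0.49). MED16 was no longer called without untreated library 2 (0.45), treated library 1 (0.81) or 2 (0.80), or treated knock-in library 1 or 2 (0.81 each).

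Promoters were searched for the interferon-stimulated response element (ISRE), the DNA element bound by IRF factors. It was searched as GAAA, any 2 bases and GAAA, on both strands, from 250 bases before to 50 bases after each RefSeq gene start (GRCh38.p14). A window was at hand for 25 of the 33 subunits, and 1 of these, that of MED17, held the letters. Over 35116 promoters of this length, 3.57% held them. The stretch is shown because no other subunit window had these letters. Capitals mark the match, which is the reverse complement of the letters searched and begins 229 bases before the start of MED17 (chr11:93784032-93784112, plus strand). A match is a description of letters and shows no binding.
MED17: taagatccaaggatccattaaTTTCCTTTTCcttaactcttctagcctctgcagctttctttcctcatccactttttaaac

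The responses followed the GC content of the transcripts. Subunits that rose in wild-type cells had a median GC content of 56.8% (42.8 to 65.0%) and those that fell one of 42.9% (38.7 to 51.4%). In knock-in cells these medians were 57.4% and 43.1%. Over the 33 subunits, which share the same libraries, Pearson's r between log2 fold change and GC content was 0.65 (Spearman's rho 0.64) in wild-type and 0.75 (0.70) in knock-in cells. Over 15270 tested genes with a GC value it was 0.29 (0.49) and 0.55 (0.65). With log2 transcript length, r over the subunits was 0.48 and 0.42, against 0.14 and 0.15 over all genes. MED13L and MED1 went against this trend and rose at a GC content of 42.8% and 46.0%. MED20 fell at 51.4% and, in knock-in cells, MED11 at 54.0%.

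**Figure D3:**
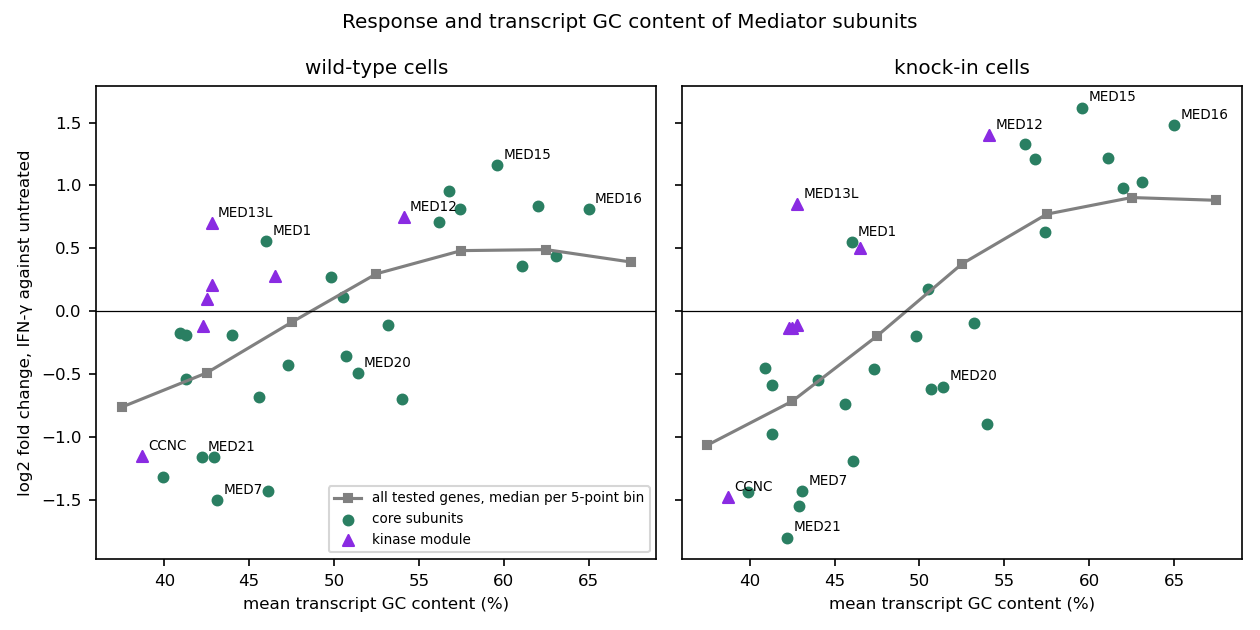
Log2 fold change with IFN-γ (vertical axis) against the mean GC content of a subunit's annotated transcripts (horizontal axis), with kinase module genes as triangles, core subunits as circles and the median of all tested genes in bins of 5 percentage points as grey squares. Most subunits follow the grey line upward from left to right; MED13L and MED1 lie well above it and MED20 below it.

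A correction that took out, for each library, the dependence of log2 CPM on GC content and length left fewer calls. In wild-type cells 8 were then higher and 7 lower, and in knock-in cells 10 higher and 7 lower, where 26.9% and 34.4% of all genes were called. With the GC content and length of the longest transcript in place of the mean over transcripts, these counts were 6 and 7 in wild-type and 8 and 9 in knock-in cells (25.9% and 32.2% of all genes). MED1, MED13L, MED15 and MED29 rose, and CCNC, MED7, MED20 and MED23 fell, in both lines under both forms of this correction. MED28, which had no wild-type call before, also had a called fall in both lines under both forms. Its values were -0.57 and -0.64 in wild-type and -0.57 and -0.62 in knock-in cells. The fall of CCNC was then -0.36 and -0.56 in wild-type and -0.42 and -0.61 in knock-in cells, less than its uncorrected value by over 1.5 times. That of MED7 was -1.14 and -0.97, and -0.89 and -0.63. MED13L rose by 0.79 and 0.43, and by 1.11 and 0.64, and MED15 by 0.77 and 0.64, and by 0.91 and 0.64. The rise of MED29 was 0.42 and 0.59, and 0.41 and 0.65. MED30 kept its wild-type call (-0.66 and -0.76) and lost that in knock-in cells (-0.30 and -0.35). MED21 lost its wild-type call (-0.30 and -0.19) and kept that in knock-in cells (-0.73 and -0.53). MED31 lost both calls under the first form (-0.37 and -0.20) and kept them under the second (-0.64 and -0.56). MED4 lost its wild-type call under the second form (-0.31) and was otherwise still called (-0.58 in wild-type, -0.76 and -0.35 in knock-in cells). CDK8, uncalled before, was called higher in knock-in cells under the first form (0.44) and not under the second (0.05). MED13, also uncalled before, was called higher in wild-type cells under both forms (0.43 and 0.33). In knock-in cells MED13 was called higher under the first form (0.30) and not under the second (0.21). MED12 lost its wild-type call (0.27 and 0.14) and kept its knock-in call (0.73 and 0.54). MED16 and MED24 kept theirs in knock-in cells under both forms and in wild-type cells under the first form only. MED10, MED17, MED18, MED11, MED22, MED25 and MED26 had no call in either line under either form. MED6 turned: its log2 fold change in knock-in cells became 0.56 and 0.46, with a call in the higher direction. In wild-type cells MED6, uncalled before, was called higher under the first form (0.54) and not under the second (0.44). MED9 was at -0.05 and 0.18 in knock-in cells and MED14 at 0.18 and -0.39.

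Scaling to the ERCC spike-ins moved every response downward. The median over all genes became -0.72 in wild-type and -0.41 in knock-in cells, and the median over the subunits -0.92 and -0.67. No subunit was then called higher in wild-type cells and 18 were called lower, where 1.41% of all genes were called higher and 40.8% lower. In knock-in cells MED15 alone was called higher (1.09) and 18 were lower (3.73% and 33.2% of all genes). Every fall called in a line was also called on this scale, with CCNC at -1.93 and -2.01 and MED7 at -2.27 and -1.96. MED12, MED13L, MED1, MED9, MED16 and MED24, which rose in wild-type cells after scaling by the trimmed mean, were at -0.01 to -0.24 on it, without a call. The amount of spike-in RNA added per cell is not given in the sources used here, so the rises given above are relative to the rest of each library.

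**Figure D4:**
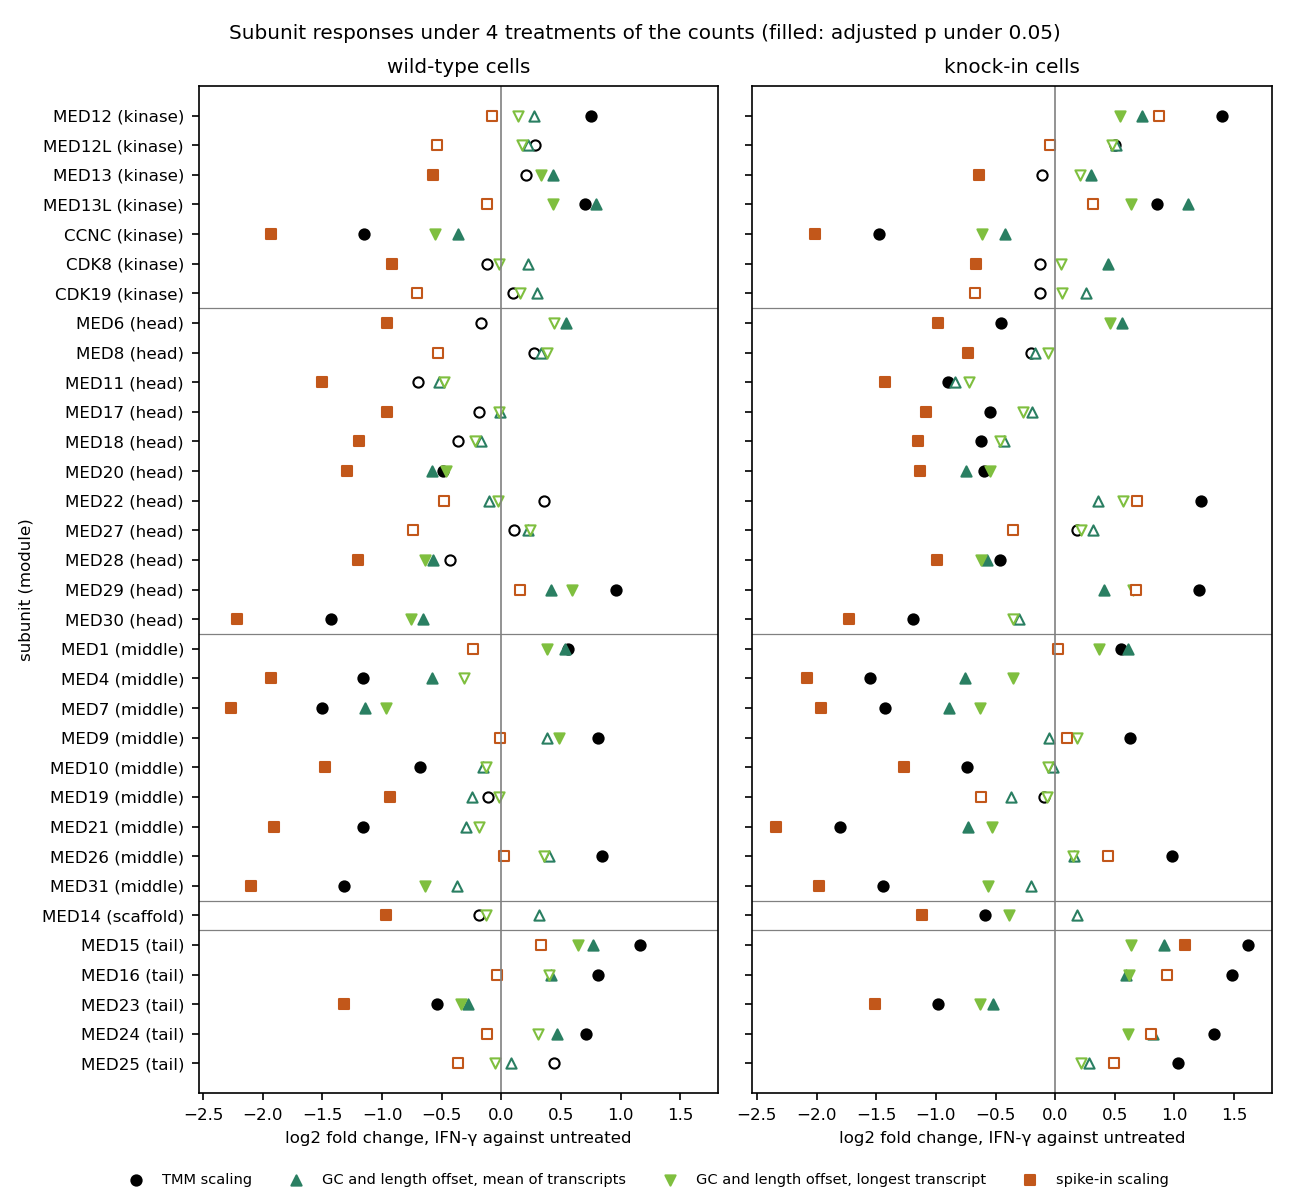
Log2 fold change of each subunit with IFN-γ in wild-type and knock-in cells with TMM factors, those of the trimmed mean of M-values (black circles), with each of 2 GC and length corrections (green triangles) and with spike-in scaling (orange squares); filled symbols had an adjusted p under 0.05. The falls of CCNC, MED7, MED20 and MED23 are filled under all 4 in both lines, whereas on the spike-in scale the wild-type rises lie between -0.24 and 0.33 and the knock-in rises between 0.02 and 1.09.

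Untreated, 4 subunits were higher and 2 lower in knock-in cells, 18.2% of the members, where 8.45% of all genes were called (4.26% higher and 4.2% lower). CDK19 (ENSG00000155111, chr6:110609978-110815958) was higher by 0.83 ± 0.17 (adjusted p = 0.0226), MED23 by 0.82 ± 0.14 (adjusted p = 0.00992), MED21 by 0.78 ± 0.20 (adjusted p = 0.045) and MED19 by 0.69 ± 0.16 (adjusted p = 0.0301). MED13L was lower, at -0.82 ± 0.13 (adjusted p = 0.00742) and MED24 by -0.75 ± 0.19 (adjusted p = 0.042). With IFN-γ 2 subunits were called, 6.06% of the members against 2.92% of all genes (1.64% higher and 1.28% lower). MED19 remained higher by 0.71 ± 0.16 (adjusted p = 0.0458), at 22.2 and 22.4 CPM against 13.0 and 14.3 CPM, and MED13L lower, at -0.67 ± 0.13 (adjusted p = 0.0282). CDK19 was at 0.60 ± 0.17 with IFN-γ, without a call. MED12 mRNA itself was at -0.63 ± 0.24 untreated (adjusted p = 0.122) and 0.02 ± 0.23 with IFN-γ (adjusted p = 0.987). Leaving out an untreated wild-type library moved the untreated value to -0.94, with a call (library 2), or to -0.24 (library 1).

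None of these 8 calls held with every library left out in turn. The number of untreated calls changed with the library left out, and the share of all genes called in these fits is not given here. Untreated, MED13L lost its call without knock-in library 2 (-0.70), the one with the plasma cell signal, and MED23 without knock-in library 1 (0.74). CDK19 lost it when the omitted library was untreated wild-type 1 (0.90), untreated knock-in 1 (0.63), or treated knock-in library 1 or 2 (0.83 each). MED19 lost it without any one library (0.66 to 0.71) other than the untreated wild-type pair, MED21 without any one (0.53 to 0.93) other than untreated wild-type library 2, and MED24 likewise (-0.42 to -0.84, the smallest without untreated wild-type library 1). With IFN-γ, MED13L lost its call without any one treated library (-0.65 to -0.69), and MED19 without any one treated library (0.64 to 0.78) or either untreated knock-in library (0.71 each). Without both knock-in libraries numbered 2 no subunit was called in either comparison, with fewer libraries in the fit. The values themselves were then 1.01 for CDK19, 0.91 for MED23, 0.93 for MED21 and -0.70 for MED13L untreated, and 0.70 for MED19 with IFN-γ. In that untreated comparison both wild-type libraries had the plasma cell signal (360 and 407 CPM) and the lone knock-in library did not (2.34 CPM). Line and signal therefore cannot be told apart in these untreated values. With spike-in scaling 1 call, that of MED13L, was left untreated and none with IFN-γ. With both GC and length corrections CDK19 (0.62 and 0.63) and MED23 (0.42 and 0.41) were also called higher with IFN-γ. Untreated, CDK8 (-0.58 and -0.45) and MED29 (-0.41 and -0.51) were also called lower, and MED21 lost its call with the longest transcript (0.43). Over the 33 members the uncorrected untreated line difference went with GC content (Pearson's r -0.51, against -0.20 over all genes with a GC value).

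Shares of a paralogue within its pair need no scaling between libraries, and are given per kb of mean transcript length as a description. CDK19 made up 17.8, 16.0, 19.3 and 19.0% of CDK8 and CDK19 together in the wild-type libraries (untreated 1 and 2, treated 1 and 2). In the knock-in libraries it made up 32.6, 30.8, 32.0 and 31.4%. The shares of the lines did not overlap and moved little with IFN-γ. CDK8 was lower in the knock-in line, at -0.37 ± 0.14 untreated and the same with IFN-γ, without a call in either (adjusted p = 0.138 and 0.247). With both GC and length corrections CDK8 was called lower untreated (-0.58 and -0.45) and not called with IFN-γ (-0.36 and -0.38). CDK8 and CDK19 had nearly the same GC content as a mean over transcripts, 42.3% and 42.5%, but 45.3% and 42.4% in the longest transcript. MED13L made up 38.5, 31.9, 42.0 and 44.2% of its pair with MED13 in wild-type and 21.7, 21.0, 33.4 and 35.8% in knock-in libraries. As a mean over transcripts the GC content was 42.8% for both genes, but in the longest transcript it was 38.7% for MED13 and 44.0% for MED13L. The MED13L share was higher with IFN-γ in both lines, and the treated knock-in libraries overlapped the untreated wild-type ones. MED12L made up 23.0, 29.8, 17.2 and 23.3% of its pair with MED12 and 31.7, 35.2, 18.5 and 23.9% in the knock-in libraries.

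**Figure D5:**
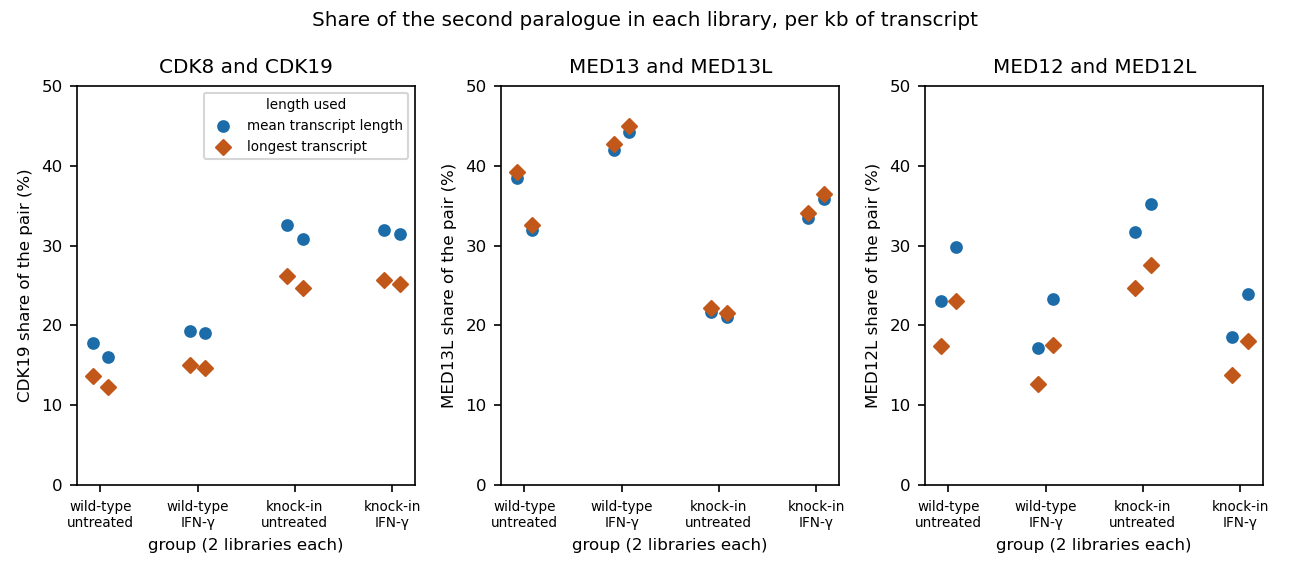
Share of CDK19, MED13L and MED12L in the level per kb of their pair (vertical axis, percent) in each library of the 4 groups, with the mean (blue circles) or the longest transcript length (orange diamonds). CDK19 lies at 16.0 to 19.3% in the wild-type and 30.8 to 32.6% in the knock-in libraries with the mean length; with the longest transcript both ranges are lower and still apart.

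No subunit was called for a difference between the lines in its response. This difference between responses (knock-in minus wild-type log2 fold change) had no call among the 33 members, where 0.0% of all 16519 genes were called by edgeR. At an unadjusted p under 0.05 there were 3 members by edgeR's test and 2 by DESeq2. The share of all genes at this unadjusted threshold is not given here, so these counts cannot be set against it. The 3 by edgeR's test were MED22 (0.86 ± 0.35), MED24 (0.62 ± 0.26) and MED21 (-0.65 ± 0.29), each with an adjusted p of 0.688. MED12 differed by 0.65 ± 0.33 and CDK8 by -0.01 ± 0.20. Whether the number of called subunits differs between the lines was not tested. Over the 33 members this difference also went with GC content (r = 0.71, rho = 0.68; over all 15270 genes with a GC value 0.22 and 0.49), and with GC content and length removed its range over the members narrowed from -0.65 to 0.86 to -0.50 to 0.46.

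Levels of the subunits relative to each other were compared per kb of mean transcript length, over all 8 libraries. Averaged over treated and untreated libraries, MED13 was at 128 CPM per kb (109 to 143 over libraries), followed by CCNC at 120 (66.5 to 197), MED13L at 67.5 (33.1 to 105), MED24 at 66.6 (31.4 to 95.9) and MED1 at 57.1 (40.9 to 72.2). These ranges overlapped, except that MED13 lay above those of MED13L, MED24 and MED1 in every library. With the mean transcript length, the order of MED13 and CCNC turned with treatment. CCNC was above MED13 untreated, at 155 against 119 CPM per kb in wild-type and 187 against 134 in knock-in cells, and below it with IFN-γ, at 69.7 against 137 and 66.9 against 124. With this same length, CCNC in treated wild-type cells was also below MED13L (104), MED24 (92.4) and MED1 (71.3). MED12L was the lowest at 2.77 (2.3 to 3.62), below MED22 at 6.03 (2.8 to 7.9), CDK19 at 7.39 (5.14 to 10.9), MED11 at 8.39 (4.85 to 13.0) and MED12 at 8.98 (4.28 to 13.2), whose ranges overlapped. CDK8 was at 22.6 (18.0 to 27.0), also the median over the 33 subunits. With the longest annotated transcript the median was 11.4, and CCNC came first at 58.8 and MED13 second at 30.9. By that length CCNC stayed above MED13 in every group, at 32.9 against 29.8 CPM per kb in treated knock-in cells. In treated wild-type cells CCNC was at 34.3, slightly above MED13. There it was also above MED24 (29.4) and MED13L (25.8) and slightly below MED1. The turn in the order of MED13 and CCNC therefore depended on the length used.

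Genes of the machinery that Mediator works with were counted for comparison, beside the 37.9% (wild-type) and 52.1% (knock-in) of all tested genes that were called. The correction for GC content and length was made here with the mean over transcripts only. With it 26.9% and 34.4% of all tested genes were called. Of 12 RNA polymerase II subunits, 1 rose and 4 fell in wild-type cells and 2 rose and 4 fell in knock-in cells (medians -0.38 and -0.26), and with GC content and length removed 0 rose and 7 fell in knock-in cells (median -0.53). POLR2A, the catalytic subunit, rose by 0.91 ± 0.13 in wild-type cells (25.1 to 47.2 CPM), and POLR2K changed by -1.41 ± 0.16 and -1.54 ± 0.16. Of 31 general transcription factor genes, 4 rose and 14 fell in wild-type and 7 rose and 16 fell in knock-in cells (medians -0.28 and -0.68). With GC content and length removed these counts were 6 and 11, and 5 and 8 (medians -0.15 and -0.06). TAF1, the largest TFIID subunit, rose by 0.99 ± 0.13 in wild-type cells, and MNAT1, a subunit of the TFIIH kinase, changed by -1.49 ± 0.18. Of 20 pause release and elongation factors, 7 rose and 5 fell in wild-type and 9 rose and 5 fell in knock-in cells (medians 0.32 and 0.34), and 5 rose and 3 fell in each line after that correction. CDK12, a kinase of the C-terminal domain of the polymerase, rose by 1.09 ± 0.14 in wild-type cells, and SUPT4H1 changed by -1.09 ± 0.14. In knock-in cells the general transcription factor genes that rose and fell most were TAF6 (1.14 ± 0.24) and GTF2A2 (-1.62 ± 0.16), and the elongation factor genes SUPT5H (1.24 ± 0.19) and LARP7 (-1.23 ± 0.20). Of 7 genes of cohesin and its loader, which cooperates with Mediator at enhancer loops, 2 rose and 4 fell in both lines. After the correction 0 rose and 2 fell in wild-type and 0 rose and 3 fell in knock-in cells. STAG2 changed by -1.05 ± 0.16 and -1.46 ± 0.16. With GC content and length removed, the calls of POLR2K, of POLR2E (0.91 in knock-in cells before, 0.20 after), of LARP7 (-0.07 after) and of MAU2 (0.62 and 1.07 before, 0.15 and 0.25 after) were lost. Those of POLR2A (0.64), TAF1 (1.08), MNAT1 (-0.57), CDK12 (0.92), SUPT4H1 (-0.85) and STAG2 (-0.65 and -0.81) were kept. Between the lines 1 general transcription factor was called: GTF2E2, a TFIIE subunit named here after its value was seen, was lower in untreated knock-in cells (-0.59). No gene of the other 3 lists was called in either comparison.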

How the data were processed

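The deposited values are estimated counts by Ensembl ID; per the submitters' processing notes the authors trimmed reads with Trimmomatic and quantified them with kallisto on GRCh38. Neither tool versions nor the transcript annotation is given in the sources used here. Every column name matched 1 library's label. Of the nonzero values, 58.1% were not whole (tolerance 1e-06), and all were rounded. The 63 ERCC spike-ins stayed out of the tests.

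GENCODE 29 (GRCh38) named 35583 of the 40295 IDs and gave positions, GC content and length. Genes were kept by filterByExpr (minimum count 10) and fitted with edgeR 4.0.16 in R 4.3.3: TMM factors of 0.86 to 1.134, group as the only factor over all 8 libraries, quasi-likelihood F test, Benjamini-Hochberg threshold 0.05 over all tested genes. The common dispersion was 0.0415, a coefficient of variation of 20.4%. The fit was tested on simulated data. Standard errors are those of the log2 fold change.

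Alternatives were DESeq2 1.42.0 and its size factors, other count filters, the replicate block, a loess offset (span 0.3) for GC content and length (known for 92.4% of tested genes), spike-in scaling, each library left out, and both knock-in libraries numbered 2 left out. The offset by longest transcript was chosen after seeing the data. The members, lists and alternatives were chosen with earlier results of these data known. Named were all 33 members and, of each machinery list, the called gene with the largest rise and fall in each response whose group mean reached 5 CPM. No protein sequences were used here, and a second promoter motif that was searched is not reported here.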

Additional observations from a re-analysis of the deposited data

Results flagged for a closer look

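With TMM scaling MED8, a head subunit, moved in opposite directions in the 2 lines without overlap between treated and untreated libraries. It was at 14.5 and 16.3 CPM untreated and 17.6 and 19.6 CPM treated in wild-type cells, and at 17.5 and 18.2 CPM untreated and 15.2 and 15.9 CPM treated in knock-in cells. The difference between responses was -0.47 ± 0.23 on the log2 scale and was not called (adjusted p = 0.688, edgeR quasi-likelihood F test), and neither response was called (0.27 and -0.20). With spike-in scaling MED8 went down in both lines (-0.53 and -0.73), with a call in knock-in cells. With the longest-transcript offset its knock-in value was -0.06. The share of all genes with such a pattern is not given here.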

How the results depend on the processing

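With DESeq2, its size factors and the other count filters at most 1 member per comparison gained or lost a call, except that without a count filter 10 members were called in the untreated line difference in place of 6. With the GC and length offset, 17 members were called in the knock-in response, 17 also with the longest transcript, and 4 and 5 in the line difference with IFN-γ. The median over members became 0.22 (wild-type) and 0.16 (knock-in), and 0.05 with the longest transcript for the knock-in response. MED6 turned to 0.54 in wild-type and 0.56 (longest transcript 0.46) in knock-in cells, each called higher. In knock-in cells MED13 turned to 0.30 and CDK8 to 0.44 (both then called higher), MED9 to -0.05 and MED14 to 0.18. With spike-in scaling the medians were -0.92 and -0.67 for the responses, -0.29 for the untreated line difference and 0.21 for the difference between responses. Line differences then had 1 call untreated and 0 with IFN-γ. In wild-type cells MED12 turned to -0.08, MED13 to -0.57, MED13L to -0.12, MED1 to -0.24, MED9 to -0.01, MED16 to -0.04 and MED24 to -0.12. Leaving out 1 library gave 11 to 20 calls in the wild-type response, a knock-in median of -0.26 to -0.11, and 1 to 13 and 0 to 2 calls in the line differences untreated and with IFN-γ. Leaving out both knock-in libraries numbered 2 gave 12 calls and a median of -0.32 in the knock-in response and 0 calls in either line difference. With the longest transcript, the median level per kb was 11.4. The cause of these changes was not tested, and the share of all genes called with libraries left out is not given here.

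Same-numbered libraries deviated together by a Pearson correlation over genes of 0 to 0.07 for 5 pairs of groups and 0.27 between the knock-in groups. The knock-in libraries numbered 2 also shared the plasma cell signal (355 and 282 CPM, against 2.34 and 2.67 CPM in those numbered 1). The numbers were not taken to pair the libraries, as the design text gives no pairing, although same-numbered knock-in libraries shared these traits. With the replicate block the line difference with IFN-γ had 1 call, that of MED13L, as MED19 lost its call, and the wild-type response 20. With the block and the offset together the medians were 0.21 and 0.16, the line difference with IFN-γ had 4 calls, and MED6 was at 0.54 and 0.55, MED13 at 0.30, CDK8 at 0.44, MED9 at -0.05 and MED14 at 0.18. The lowest count of a member was 97, and each group had 2 libraries, which limits the precision.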
